A study of Mus musculus with 92 samples.

Results

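The HoxC genes are the 9 Hox genes of the cluster on mouse chromosome 15, here Hoxc13, Hoxc12, Hoxc11, Hoxc10, Hoxc9, Hoxc8, Hoxc6, Hoxc5 and Hoxc4 in the order of rising coordinate. They were taken by name from the 21887 protein-coding genes of the annotation, and every deposited peak from 10 kb before Hoxc13 to 10 kb after Hoxc4 was placed, a window of 135.726 kb (chr15:102911131-103046856, mm10). Across the 30 peak lists of the series this window held 216 of 1189945 peaks. Merged wherever they overlapped by at least 1 bp, these peaks made 37 of the 154860 distinct intervals of the genome.

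Hox genes encode homeodomain transcription factors that give cells along the head-to-tail axis their position, and the genes of a cluster are switched on in the order in which they lie. Cohesin is a ring that extrudes loops of chromatin and carries a single STAG subunit, STAG1 or STAG2 in most cells and STAG3 chiefly in germ cells. CTCF, a zinc-finger protein, halts cohesin at its sites, and in Hox clusters CTCF-bound sites are known as borders between active and repressed chromatin.

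The series asked how cohesin with STAG3 is distributed in the male germline, and chromatin immunoprecipitation with sequencing (ChIP-seq) was the assay. STAG2 and STAG1 lists came from wild-type cells of 5 types, called ESC, EpiLC, d2PGCLC, d4c7PGCLC and GSC in the labels. In this field ESC and EpiLC stand for embryonic stem cells and the epiblast-like cells made from them. PGCLC are the primordial germ cell-like cells made from those in turn, here at d2 and d4c7, and GSC stands for germline stem cells, cultured spermatogonia. STAG3 lists came from wild-type GSC alone. The 4 CTCF lists came from mutant GSC: Stag1Stag2dKO (labelled Stag3-only), Stag1Stag3dKO (Stag2-only), Stag2Stag3dKO (Stag1-only) and Stag3KO, so that every CTCF genotype but the Stag1Stag2dKO lacked Stag3. GSC belonged to the AAG line (Acrosin-EGFP and beta-Actin-EGFP) and were sorted for that signal. The other cells belonged to BDF1-2-1, a BVSC line with Blimp1-mVenus and Stella-ECFP reporters, and PGCLC were sorted as BV-positive. GSC and the other cell types were therefore different lines, which cannot be told apart from cell type in any comparison below. There were 13 STAG2 lists, 10 STAG1 lists and 3 STAG3 lists, each from 1 library, and 1 list per CTCF genotype from pooled replicates. Each group of protein and cell type had 2 or 3 lists. The labels do not say whether replicates were separate cultures, so p-values measure the spread between these libraries. The lists held between 9641 and 84904 peaks, the depth behind them is unknown, and peak lists offer no check of cell identity or of the knockouts.

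**Figure D1:**
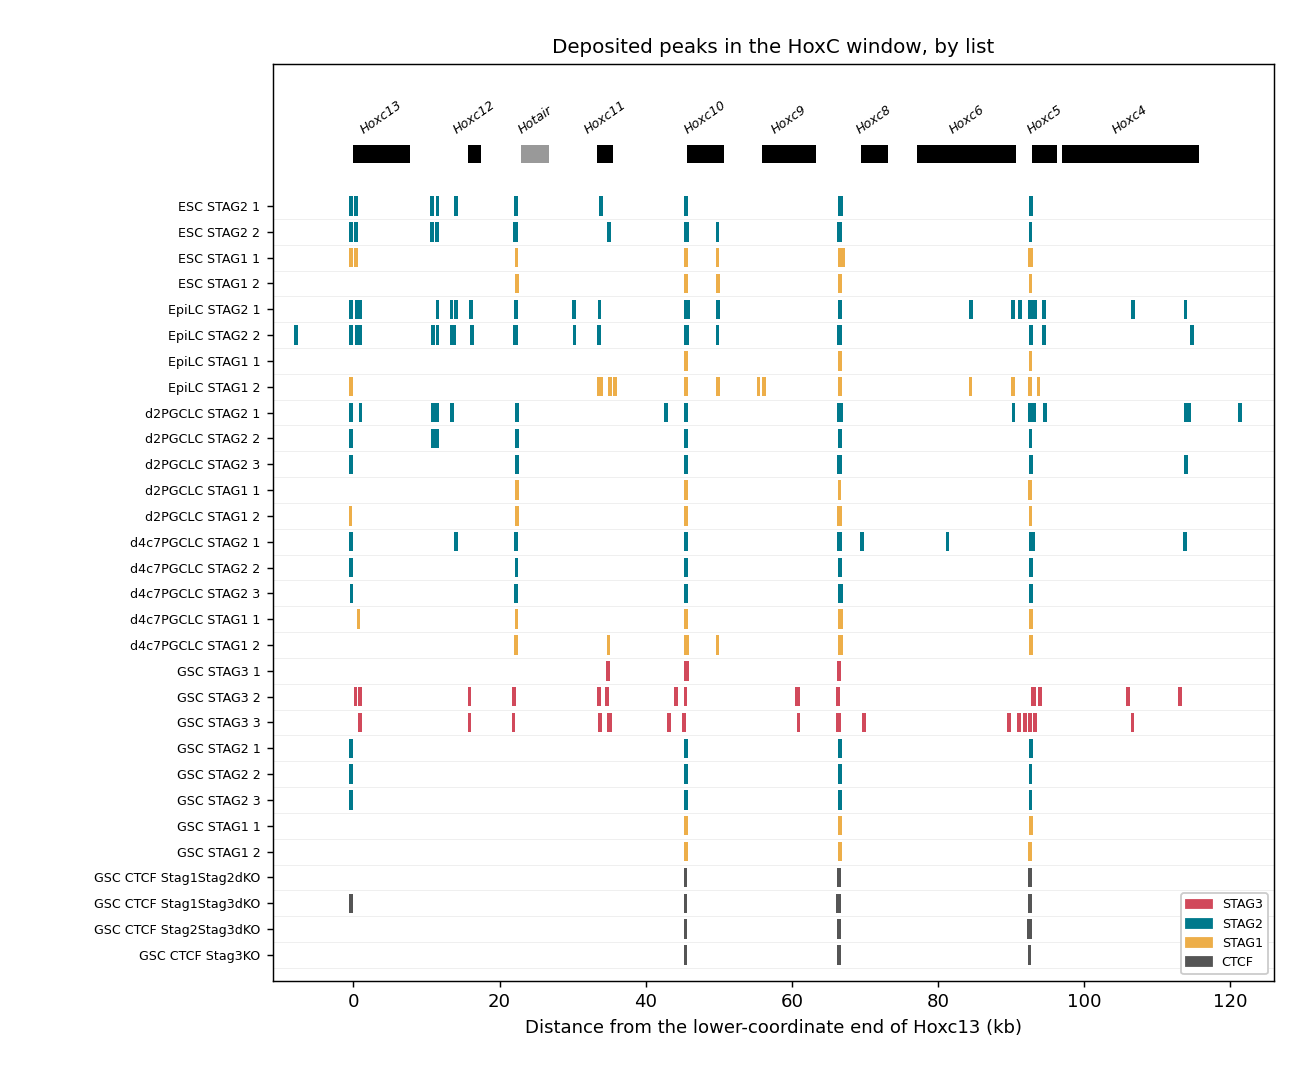
Position of each deposited peak in the HoxC window (x axis, kb from the lower-coordinate end of Hoxc13) in each of the 30 lists (rows, the number being the replicate), with gene bodies above; very narrow peaks are drawn at a minimum width. The columns at Hoxc10 and between Hoxc9 and Hoxc8 run through all 30 lists, and the column at the lower end of Hoxc13 holds 13 of 13 STAG2 lists, 3 of 10 STAG1 lists and no STAG3 list.

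Most HoxC peaks stacked on a few positions, and most of the rest were rare and weak. Of the 37 intervals, 2 were called in all 30 lists, against 2.26% of intervals genome-wide. Another 14 were called in 1 list alone, against 28.0% genome-wide. Called in at least 13 of the 26 STAG lists were 5 of the 37 intervals, a smaller share than the 20.7% of all intervals with a STAG peak. These 5 took 127 of the 216 peaks. The matching share of peaks genome-wide was not computed, so the stacking is not shown to be particular to HoxC. The other 89 peaks had fold enrichments between 2.43 and 8.54, median 4.498, as the authors' peak caller gave them. They stood low in their own lists, at a median of 83.3% of the way down when each list was ordered by fold enrichment. The highest placed, a pair in STAG3 replicate 2 at the start of the Hoxc13 body, had a fold enrichment of 7.55 and stood at 24.4%, above the Hoxc10 peak of that list at 49.2%. By position, 21 intervals touched the body of a HoxC gene and 16 lay outside all of them. Interval width ran between 200 and 1317 bp with a median of 378 bp.

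Over its 13 lists STAG2 occupied 26 of the 37 intervals, and over its 10 lists STAG1 occupied 15, with 11 in common, 15 with STAG2 and no STAG1, and 4 with STAG1 and no STAG2. Genome-wide, of intervals with either protein, 36.5% had both, 61.5% had STAG2 and no STAG1, and 1.97% had STAG1 and no STAG2. STAG2 had more lists and longer ones, and these counts are not set to list length. STAG3 occupied 19 intervals from 3 lists, 7 of which carried no other protein, against 26.9% of STAG3 intervals genome-wide. CTCF occupied 4 intervals, 3 of them in all 4 genotypes, against 77.9% of CTCF intervals genome-wide.

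The 5 recurrent sites are described in the order of the chromosome. The first lay at the lower end of Hoxc13, a gene required for hair and nail formation, and ended 59 bp before the gene (chr15:102920528-102921072). STAG2 was called there in all 13 lists. Its fold enrichment was 15.9 and 10.6 for ESC, 21.03 and 33.6 in EpiLC, 8.32, 8.16 and 10.9 for d2PGCLC, 6.52, 8.71 and 6.39 in d4c7PGCLC and 5.39, 4.93 and 14.2 in GSC. STAG1 was called in 3 of 10 lists, 1 each of ESC, EpiLC and d2PGCLC, with fold enrichments of 5.46, 6.17 and 4.05. No d4c7PGCLC or GSC STAG1 list and no STAG3 list had a peak there. The Hoxc13 site was thus the one recurrent HoxC site present in every STAG2 list and absent from most STAG1 lists. List length was not set apart in that contrast. In GSC its STAG2 peaks ranked 20097, 13273 and 5937 by fold enrichment, and the whole GSC STAG1 lists held 9641 and 10778 peaks. With every list held to its 9641 highest peaks, the site was kept in 1 of 13 STAG2 lists and 0 of 10 STAG1 lists. The difference in presence gave an exact stratified permutation p of 0.001, which did not pass after Benjamini-Hochberg adjustment over 136329 intervals (adjusted p = 0.0646).

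The same test was applied to all 30 HoxC intervals with a STAG2 or STAG1 peak, a test chosen after the lists had been seen. At an adjusted p under 0.05 the exact stratified permutation test called 0 intervals for STAG2, against 1.05% of intervals genome-wide, and 0 for STAG1, against 0.0117%. At an unadjusted p under 0.05 there were 4 of the 30 for STAG2, against 15.3% of intervals genome-wide, and 0 for STAG1, against 0.0924%, so the STAG2 count was near the background. The 4 were the Hoxc13 site and 3 intervals between Hoxc13 and Hoxc12. These 3 were called in 5, 6 and 5 STAG2 lists and in no STAG1 list, with exact p of 0.0333 (chr15:102931606-102932205), 0.0111 (chr15:102932415-102932814) and 0.0433 (chr15:102934348-102935338). None of the 3 had a GSC peak of any protein.

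The second recurrent site lay between Hoxc12 and Hoxc11 and ended 280 bp before the annotated body of Hotair, a long non-coding RNA gene of the cluster (chr15:102942870-102943782). It was called in 10 of 13 STAG2 lists, 6 of 10 STAG1 lists and 2 of 3 STAG3 lists, and never for CTCF. STAG2 was present in all 10 lists outside GSC and absent from all 3 GSC lists. Its fold enrichment was 19.8 and 22.7 for ESC, 13.2 and 14.99 in EpiLC, 31.7, 19.2 and 15.5 for d2PGCLC, and 8.38, 8.72 and 6.96 in d4c7PGCLC. STAG1 was called in both lists of ESC, d2PGCLC and d4c7PGCLC, with fold enrichments of 5.70 and 4.71, 10.1 and 11.4, and 4.28 and 4.73, and in neither list of EpiLC or GSC. In GSC the merged interval near Hotair therefore held STAG3 peaks without STAG2 or STAG1 peaks. List length was not set apart there either. Outside GSC the STAG2 peaks of the site ranked between 11510 and 31860 by fold enrichment, and the whole GSC STAG2 lists held 25021, 13698 and 25979 peaks. Both STAG3 peaks were low, with fold enrichments of 4.35 and 4.30. They lay at the lower edge of the interval, at 102942984-102943183 and 102942870-102943260, and joined it by overlapping only some of its other peaks. They do not show STAG3 at the position of the STAG2 and STAG1 summits. Their summits, at positions 102943047 and 102943066 of the chromosome, lay apart from those of STAG2, between 102943460 and 102943528, and of STAG1, between 102943413 and 102943566. STAG2 and STAG1 were not told apart there by the exact stratified permutation test (p = 0.333).

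The third recurrent site covered the lower end of Hoxc10, a gene of the lumbar part of the axis (chr15:102966154-102967217), and was called in all 30 lists. STAG2 fold enrichment was 102 and 109 for ESC, 205 and 201 in EpiLC, 148, 85.9 and 119 for d2PGCLC, 83.8, 53.1 and 50.8 in d4c7PGCLC and 60.01, 37.5 and 52.7 in GSC. STAG1 gave 48.0 and 28.7 for ESC, 14.8 and 26.7 in EpiLC, 26.3 and 32.4 for d2PGCLC, 39.6 and 41.3 in d4c7PGCLC and 23.5 and 13.6 in GSC. STAG3 gave 6.07, 5.72 and 7.04 in GSC. Fold enrichment depends on the depth and background of each library, and the place of the peak within its own list, given beside it, depends on the length of that list. The Hoxc10 site was the highest HoxC peak in all 13 STAG2 lists, between the top 0.581% and the top 4.42% of each list. It lay between the top 0.854% and 18.1% of STAG1 lists and between the top 29.2% and 50.3% of STAG3 lists. CTCF at Hoxc10 had fold enrichments of 34.1 in the Stag1Stag2dKO, 36.0 in the Stag1Stag3dKO, 38.7 in the Stag2Stag3dKO and 38.4 in the Stag3KO.

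The fourth recurrent site lay between Hoxc9 and Hoxc8, genes of the thoracic part of the axis, 2787 bp above Hoxc9 and 2183 bp below Hoxc8 (chr15:102987231-102988356), and was again called in all 30 lists. It was the highest HoxC peak in 9 of 10 STAG1 lists and in 3 of 3 STAG3 lists, and in none of the 13 STAG2 lists. STAG2 fold enrichment ran between 31.2 and 151 with a median of 71.0, and STAG1 fold enrichment between 14.5 and 53.7 with a median of 33.2. STAG3 gave 12.8, 10.52 and 11.7. The order of the 2 leading HoxC sites thus differed between proteins: Hoxc10 first for STAG2, and the Hoxc9-Hoxc8 site first for STAG3 and, in all but 1 list, for STAG1. The STAG3 peaks there stood in the top 3.31%, 9.53% and 6.96% of their lists. That order was noticed in the lists and was not tested.

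The fifth recurrent site covered the lower end of Hoxc5, 1448 bp above Hoxc6 (chr15:103013330-103014646). It was called in 29 lists, the exception being STAG3 replicate 1 of GSC, the shortest STAG3 list. STAG2 fold enrichment was 27.2 and 18.9 for ESC, 35.1 and 27.4 in EpiLC, 22.9, 20.6 and 22.4 for d2PGCLC, 18.6, 15.6 and 10.7 in d4c7PGCLC and 7.86, 6.33 and 7.17 in GSC. STAG1 fold enrichment was 29.1 and 10.2 for ESC, 5.98 and 7.73 in EpiLC, 9.77 and 13.1 for d2PGCLC, 19.1 and 20.8 in d4c7PGCLC and 6.60 and 6.43 in GSC. CTCF fold enrichments at Hoxc5 lay between 29.4 and 32.3, against 34.1 to 38.7 at Hoxc10. STAG2 and STAG1 fold enrichments were lower at Hoxc5 than at Hoxc10 in each of their lists. The 3 sites with CTCF in all genotypes thus lay at Hoxc10, between Hoxc9 and Hoxc8, and at Hoxc5, with starts 21077 bp and 26099 bp apart. No interval above Hoxc5, which includes all of Hoxc4, had a CTCF peak in any genotype.

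**Figure D2:**
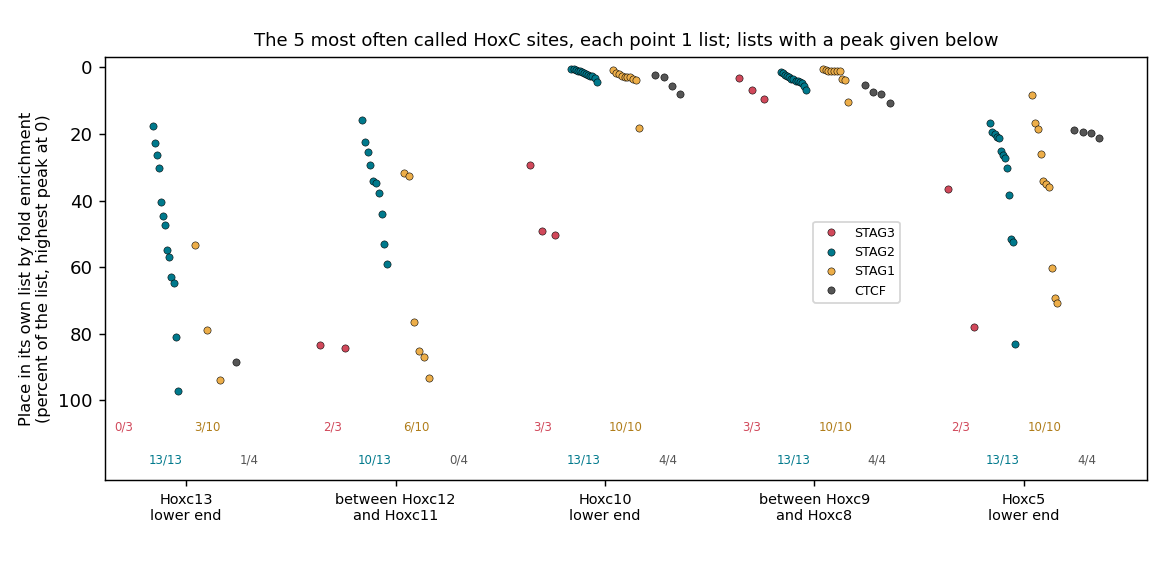
Place of each recurrent HoxC site in its own list when the list is ordered by fold enrichment (y axis, percent of the list, highest peak at the top), for STAG3, STAG2, STAG1 and CTCF; each point is 1 list, and the fractions give lists with a peak over all lists of that protein. The Hoxc10 site stands in the top 4.42% or higher of all 13 STAG2 lists and between 29.2% and 50.3% in STAG3 lists.

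At the Hoxc10 and Hoxc9-Hoxc8 sites all STAG2 and STAG1 summits lay on the Hoxc4 side of the CTCF summit, and the STAG3 summits lay nearer to Hoxc13 than any of them. Distances were taken to the median CTCF summit of the 4 genotypes, positive towards Hoxc4. At Hoxc10 the STAG3 summits in GSC lay at -68, -49 and -20 bp, against 83, 91 and 86 bp for STAG2 in GSC. The mean was -45.7 ± 24.2 bp for STAG3 and 86.7 ± 4.04 bp for STAG2 (SD, n = 3 each), and over all cell types STAG2 summits lay between 83.0 and 111 bp and STAG1 summits between 68 and 113 bp. Between Hoxc9 and Hoxc8 the STAG3 summits lay at 33, 26 and -14 bp, against 62, 89 and 110 bp for STAG2 in GSC. The STAG3 summits overlapped neither the STAG2 nor the STAG1 summits at either site. The difference of STAG3 minus STAG2 was -132 bp at Hoxc10 and -72.0 bp between Hoxc9 and Hoxc8, each with an exact two-sided permutation p of 0.1, the smallest that 3 against 3 lists allow.

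Such differences were common outside the HoxC window. Among the 5272 intervals with CTCF in all genotypes and a peak in all GSC STAG3 and STAG2 lists, the STAG3 and STAG2 summit distances did not overlap, in either direction, at 56.1%. At 33.0% all 3 STAG3 summits were nearer to the CTCF summit than all 3 STAG2 summits. The median distance to the CTCF summit per list, over all such CTCF sites with a peak, was between 42.5 and 45.0 bp for STAG3, between 60 and 62.5 bp for STAG2, and between 58.0 and 64.0 bp for STAG1. The names of the STAG3 peaks carry another working directory than those of STAG2 and STAG1, so a separate calling run cannot be told apart from the protein. At Hoxc5 STAG3 was called in 2 lists. The summit of the highest peak per list lay 717 bp and 52 bp above the CTCF summit for STAG3. It lay at 70 to 167 bp for STAG2 and 31 to 157 bp for STAG1. The 717 bp summit, at position 103014399, belonged to a flanking peak of STAG3 replicate 2. Weaker second peaks lay there in EpiLC STAG2 replicate 1, d2PGCLC STAG2 replicate 1 and STAG3 replicate 3, with summits at 103014426, 103014336 and 103014486. The far summit was thus not particular to STAG3.

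**Figure D3:**
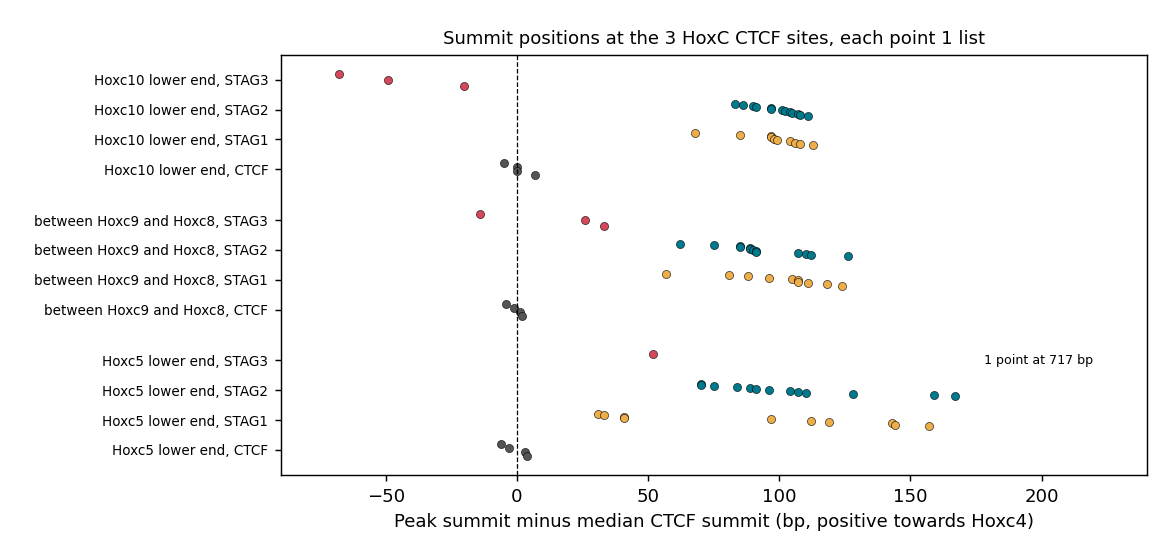
Position of each peak summit relative to the median CTCF summit (x axis, bp, positive towards Hoxc4) at the 3 HoxC sites with CTCF in all genotypes; each point is 1 list and rows are proteins. At Hoxc10 the STAG3 points lie at -68 to -20 bp and the STAG2 points at 83.0 to 111 bp.

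The number of HoxC peaks was higher in STAG2 than in STAG1 lists as deposited. STAG2 lists held 10 and 10 peaks in ESC, 20 and 17 in EpiLC, 15, 7 and 6 for d2PGCLC, 9, 5 and 5 in d4c7PGCLC and 4, 4 and 4 in GSC. STAG1 lists held 7 and 5 peaks in ESC, 3 and 13 in EpiLC, 4 and 5 for d2PGCLC, 5 and 6 in d4c7PGCLC and 3 and 3 in GSC. STAG2 and STAG1 did not overlap in ESC, EpiLC, d2PGCLC and GSC, and they overlapped in d4c7PGCLC. Averaged over cell types, STAG2 lists held 4.23 more HoxC peaks than STAG1 lists (exact permutation test within cell types, two-sided, p = 0.00347).

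The excess was not seen per 10000 peaks or at equal list length, and neither measure fully sets list length apart from protein. Every STAG2 and STAG1 list, long or short, had 3 peaks on the sites with CTCF in all genotypes. These count for more per 10000 peaks in a short list, so the direction below is not free of list length. Per 10000 peaks of a list the difference was -0.561 (exact permutation p = 0.0524), with 1.37 ± 0.00619 for STAG2 and 1.75 ± 0.0575 for STAG1 in ESC as an example (SD, n = 2 each). It passed the threshold when any of 5 single lists was left out, with -0.862 (p = 0.0103) without EpiLC STAG1 replicate 1, -0.651 (p = 0.0303) without GSC STAG2 replicate 2, -0.606 (p = 0.0310) without d2PGCLC STAG2 replicate 1, -0.574 (p = 0.0446) without d4c7PGCLC STAG1 replicate 1 and -0.581 (p = 0.0382) without d4c7PGCLC STAG2 replicate 1, all by the same exact test. Without EpiLC STAG1 replicate 2 it was -0.260 (exact p = 0.127). It also passed with a −log10 q of at least 5, at -0.571 (exact p = 0.0230), and with no flank, at -0.719 (exact p = 0.00469). When every list was held to its 9641 peaks of highest fold enrichment, the direction turned: STAG2 lists held 2 or 3 HoxC peaks, median 2, and STAG1 lists between 2 and 4, median 3, a difference of -1.03 (exact permutation p = 0.00025).

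The sites behind that turn can be named, with the limit that the cut keeps GSC STAG1 replicate 1 whole and shortens the longest STAG2 list from 84904 peaks. It thus compares places within lists of unlike length and shows no change in enrichment. At equal length the Hoxc10 and Hoxc9-Hoxc8 sites were among the kept peaks of 13 of 13 STAG2 and 10 of 10 STAG1 lists. The Hoxc5 site was kept in 0 of 13 STAG2 lists and in 9 of 10 STAG1 lists, the missing list being ESC STAG1 replicate 2. Its fold enrichments in GSC, 7.86, 6.33 and 7.17 for STAG2 and 6.60 and 6.43 for STAG1, overlapped. The site near Hotair was kept in 0 STAG2 lists and 2 STAG1 lists, both d2PGCLC, and the Hoxc13 site in 1 STAG2 list, of GSC. Of the 36623 intervals with CTCF in all genotypes, 0.0355% showed what Hoxc5 showed, at least 9 of 10 STAG1 lists and no STAG2 list at equal length, a pattern chosen after the values were seen and given without a test. A reverse pattern with a looser cut, no STAG1 list and at least 9 of 13 STAG2 lists, was found at 0.153%. The 2 shares are therefore not like for like.

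**Figure D4:**
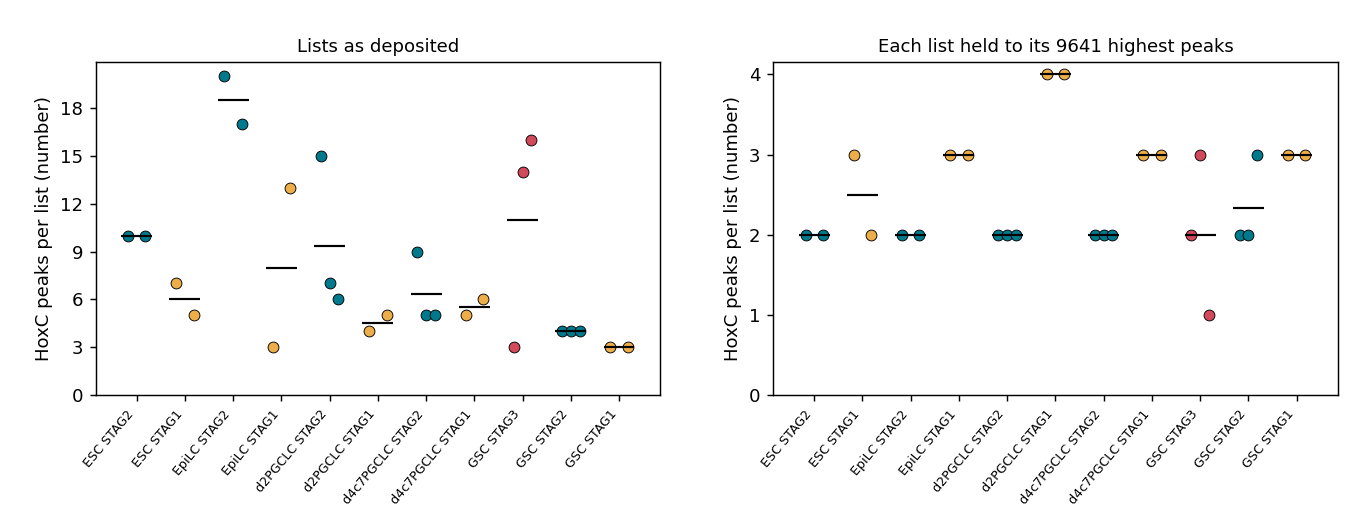
Number of HoxC peaks per list (y axis) by cell type and protein, in the lists as deposited (left) and with each list held to the same number of peaks by fold enrichment (right); points are lists and bars are group means. As deposited, EpiLC STAG2 lists hold 20 and 17 peaks and EpiLC STAG1 lists 3 and 13; at equal length STAG2 lists hold 2 or 3 and STAG1 lists 2 to 4.

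Every STAG2 and STAG1 list had 1 peak on each of the 3 shared CTCF sites, so the lists differed only in their other HoxC peaks. The share of HoxC peaks on the 3 sites is therefore 3 over the peak count of the list, and it restates the count. It averaged 30% for STAG2 and 51.4% for STAG1 for ESC, 16.3% and 61.5% in EpiLC, 37.6% and 67.5% in d2PGCLC, 51.1% and 55.0% in d4c7PGCLC and 75% and 100% in GSC, STAG2 first each time. The 2 EpiLC STAG1 lists were far apart: replicate 1 held 3 peaks, all on the CTCF sites, whereas replicate 2 held 13 intervals, 3 of them called in no other list.

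Some sites were called in every list of STAG2 and in no list of STAG1 in the same cell type. Of HoxC intervals with either protein, they numbered 2 of 12 for ESC, 7 of 26 for EpiLC and 0 of 14 for d2PGCLC. They numbered 1 of 12 for d4c7PGCLC and 1 of 4 for GSC. The genome-wide shares, of intervals with either protein, were 29.0%, 50.1%, 16.5%, 4.42% and 9.11% along the same order. The HoxC share was below these for ESC, EpiLC and d2PGCLC, and above them for d4c7PGCLC and GSC, on 1 interval each. No HoxC interval had the opposite pattern in any cell type, which is found at 0.192% of ESC intervals and 0.0838%, 0.119%, 4.29% and 0.223% of EpiLC, d2PGCLC, d4c7PGCLC and GSC intervals. Both ESC intervals lay between Hoxc13 and Hoxc12 (chr15:102931606-102932205 and chr15:102932415-102932814). The 7 EpiLC intervals ran along the 3 highest-numbered genes and Hoxc5: at the start of the Hoxc13 body (chr15:102921173-102922345), a pair before Hoxc12 (chr15:102932415-102932814 and chr15:102934348-102935338), at the lower end of Hoxc12 (chr15:102936824-102937572), near Hotair, before Hoxc11 (chr15:102951224-102951534) and inside Hoxc5 (chr15:103015331-103015973). The interval of d4c7PGCLC and GSC was the Hoxc13 site in both. In EpiLC, STAG1 replicate 1 held 3 HoxC peaks in all.

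In GSC the HoxC window held 3, 14 and 16 STAG3 peaks, against 4, 4 and 4 STAG2 peaks and 3 and 3 STAG1 peaks. STAG2 and STAG1 occupied 4 intervals there, the 3 CTCF sites and, for STAG2 alone, the Hoxc13 site. Of its 19 intervals STAG3 occupied 16 that neither STAG2 nor STAG1 had in GSC, against 49.2% of STAG3 intervals genome-wide. The GSC STAG2 lists held 25021, 13698 and 25979 peaks in all and the GSC STAG1 lists 9641 and 10778. The difference of STAG3 minus STAG2 was 7.0 peaks and that of STAG3 minus STAG1 was 8.0 peaks (exact permutation p = 0.4 for each, where the smallest possible is 0.1). Replicate 1 of STAG3, with 12832 peaks in its whole list against 38631 and 39681 in the others, was the list that overlapped: without it the differences were 11 peaks (p = 0.1) and 12 peaks (p = 0.333, the smallest then possible), again by exact permutation. Per 10000 list peaks they were 1.31 (exact permutation p = 0.2) and 0.384 (exact permutation p = 0.5). At equal list length they were -0.333 (exact permutation p = 1.0) and -1.0 (exact permutation p = 0.4).

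Only 1 HoxC interval carried STAG3 in all 3 GSC lists and neither STAG2 nor STAG1 in GSC, inside Hoxc11 (chr15:102955705-102956537), with fold enrichments of 4.48, 4.35 and 5.87. The genome-wide shares are 4.37% of intervals with STAG3 or STAG2 and 11.2% of those with STAG3 or STAG1. The same Hoxc11 interval had weak peaks elsewhere, in 1 ESC STAG2 list, 1 EpiLC STAG1 list and 1 d4c7PGCLC STAG1 list. The opposite pattern, STAG2 in all 3 GSC lists and no STAG3, was found at the Hoxc13 site alone, against 2.66% genome-wide. For STAG1 in both GSC lists and no STAG3 the HoxC count was 0, against 0.746%.

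The count of HoxC peaks was lowest in GSC for both STAG2 and STAG1. In GSC each STAG2 list held 4 peaks, against a lowest of 5, a median of 9.5 and a highest of 20 in the 10 lists of the other cell types. The difference of -6.40 peaks did not pass (exact permutation p = 0.0524), and it passed, with -6.78, -6.89, -7.00 and -7.00 (p = 0.0409 each), when d2PGCLC STAG2 replicate 2 or 3 or d4c7PGCLC STAG2 replicate 2 or 3 was left out. It also passed with a −log10 q of at least 5, at -5.93 (exact p = 0.0350), and with no flank, at -6.20 (exact p = 0.0455). Per 10000 list peaks GSC STAG2 lists held 2.02 ± 0.781 (SD, n = 3) and the others 1.64 ± 0.398 (SD, n = 10), a difference of 0.383 in the other direction (exact permutation p = 0.252). GSC STAG1 lists held 3 peaks each, against a lowest of 3, a median of 5 and a highest of 13 in the 8 other lists (difference -3.0, exact permutation p = 0.267). Per 10000 list peaks the STAG1 difference was 0.817 (exact permutation p = 0.378). Per 10000 list peaks, then, GSC stood higher for both proteins, and neither difference passed. The GSC STAG1 peaks were the 3 on CTCF sites that every STAG1 list had, and these count for more in a short list. With lists held to 9641 peaks the STAG1 difference was -0.125. The STAG2 mean at that length was 2.33 peaks in GSC and 2.0 in each other cell type.

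Gene by gene, a HoxC gene was counted for a group when a site called in at least 2 lists of the group (in the 1 list, for CTCF) lay within 2500 bp of either gene end. This rule asks for every list in groups of 2 lists and is looser in groups of 3, such as GSC STAG3 and GSC STAG2. Hoxc10, Hoxc6 and Hoxc5 were counted in all 11 STAG groups and in all 4 CTCF genotypes, and Hoxc6 and Hoxc5 share the Hoxc5 site, which lies between them. Hoxc13 was counted for STAG2 in all 5 cell types, for STAG3 in GSC and for CTCF in the Stag1Stag3dKO alone, and in no STAG1 group. Hoxc12 and Hoxc11, posterior genes of the cluster, were counted for STAG2 in EpiLC and for STAG3 in GSC only. Hoxc9 was counted for STAG3 in GSC only. Hoxc8 was counted for STAG2 in EpiLC and STAG1 in d4c7PGCLC and Hoxc4 for STAG2 in EpiLC and d2PGCLC. The edge of the Hoxc8 count is fine, since the Hoxc9-Hoxc8 interval ends 2183 bp below the gene and most of its peaks end farther away.

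The number of HoxC genes counted, of 9, was 4 for STAG2 and 3 for STAG1 for ESC, against 50.7% and 23.5% of all protein-coding genes. In EpiLC it was 8 for STAG2 and 3 for STAG1, against 53.0% and 11.7%. In d2PGCLC it was 5 and 3, against 51.2% and 19.5%. In d4c7PGCLC it was 4 and 4, against 41.1% and 28.8%. In GSC it was 7 for STAG3, 4 for STAG2 and 3 for STAG1, against 55.2%, 25.1% and 7.61%. For CTCF it was 3 in the Stag1Stag2dKO, 4 in the Stag1Stag3dKO, 3 in the Stag2Stag3dKO and 3 in the Stag3KO, against 34.4%, 33.2%, 34.5% and 35.6%. The EpiLC STAG2 count was 5 within 1000 bp, and counted from any single list EpiLC STAG1 reached 7.

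Hoxc4, whose protein promotes antibody gene diversification in B cells, is the HoxC gene with the longest annotated body, 18760 bp, and no interval there was called in more than 4 of the 30 lists. STAG2 peaks in its body were found in EpiLC, d2PGCLC and d4c7PGCLC lists, and no STAG1 list had one. A promoter of Hoxc4 is shown because a STAG3 peak of GSC replicate 2 covered it (chr15:103034188-103034430, fold enrichment 4.12, in no other list). Of the 9 HoxC genes 1 matched the RefSeq promoter table (GRCm38.p6). The sequence is chr15:103034145-103034444 on the plus strand, from 250 bases before a start at 103034395, which lies inside the gene body of 103018097 to 103036856 given by the gene table and not at its lower end, and capitals mark the 243 bases, 44 to 286, under that peak.
Hoxc4 promoter: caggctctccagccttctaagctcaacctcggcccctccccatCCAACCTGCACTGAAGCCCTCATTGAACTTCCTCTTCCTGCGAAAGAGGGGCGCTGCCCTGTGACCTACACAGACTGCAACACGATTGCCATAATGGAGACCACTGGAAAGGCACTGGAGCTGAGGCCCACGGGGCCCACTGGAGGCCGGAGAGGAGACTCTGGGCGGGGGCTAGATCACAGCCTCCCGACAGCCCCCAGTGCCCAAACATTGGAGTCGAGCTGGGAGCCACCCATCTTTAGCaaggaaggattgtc

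Hoxc5 hosts the microRNA gene Mir615, which begins 264 bp above the end of the Hoxc5 site. Its mature microRNAs are shown because a second, weak interval inside Hoxc5 (chr15:103014765-103015182) lay over them in the EpiLC STAG1 replicate 2 list, with a fold enrichment of 3.85, and over the end of the 3p arm in GSC STAG3 replicate 2, with 4.58. Both stood low in their lists, 94.1% and 78.0% of the way down. The sequences are RefSeq's (GRCm38.p6, plus strand), with the seed, bases 2 to 8, in capitals.
miR-615-5p: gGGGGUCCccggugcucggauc
miR-615-3p: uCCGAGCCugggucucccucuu
The cluster's other microRNA gene, Mir196a-2 between Hoxc10 and Hoxc9, had no peak in any list.

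CTCF was called at the same 3 HoxC sites in all 4 genotypes, and at 1 more site in 1 genotype. The Stag1Stag2dKO list held 3 HoxC peaks, the Stag1Stag3dKO list 4, the Stag2Stag3dKO list 3 and the Stag3KO list 3, and with 1 pooled list per genotype there is no replicate check. The 3 common peaks were the Hoxc10, Hoxc9-Hoxc8 and Hoxc5 sites, and CTCF summits of the 4 genotypes agreed within -6 to 7 bp of their median. The fourth Stag1Stag3dKO peak was the Hoxc13 site. Its fold enrichment of 5.76 stood 88.6% of the way down its list, and 0.691% of CTCF intervals genome-wide were called in that genotype alone.

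On average over the groups, though not in each of them, the HoxC window had fewer recurrent sites per length than the other Hox clusters. Counting sites called in at least 2 lists of a group, HoxC held 5.89 sites per 100 kb for STAG2 and 3.68 for STAG1 for ESC, 11.1 and 2.21 in EpiLC, 5.89 and 2.95 for d2PGCLC, 3.68 and 2.95 in d4c7PGCLC and 6.63 for STAG3, 2.95 for STAG2 and 2.21 for STAG1 in GSC. The mean of HoxA, HoxB and HoxD was 5.92 and 4.85 for ESC, 9.09 and 3.52 in EpiLC, 12.1 and 4.68 for d2PGCLC, 5.82 and 5.12 in d4c7PGCLC and 9.31, 4.15 and 1.79 in GSC, in the same order. HoxC was above that mean for EpiLC STAG2 and GSC STAG1 and below it in the other groups, most of all for d2PGCLC STAG2, where it held 8 sites against 16 in HoxA, 21 in HoxB and 15 in HoxD. The mean difference was -1.48 sites per 100 kb over the 11 groups (exact sign-flip permutation test, two-sided, p = 0.0273), and the groups share cell types and are not independent. Against HoxA alone it was -1.31 (p = 0.0898), against HoxB alone -1.77 (p = 0.0547) and against HoxD alone -1.35 (p = 0.0342), by the same exact test. It missed the threshold under 6 of 8 alternatives. The same windows were counted in every group, so these p-values measure the spread between groups and not between clusters.

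CTCF sites were sparser in HoxC too. It held 3 intervals with CTCF in all genotypes, or 2.21 per 100 kb, against 6 in HoxA, 9 in HoxB and 6 in HoxD, or 4.78, 4.64 and 5.13 per 100 kb. All distinct intervals together came to 27.3 per 100 kb in HoxC, against 36.6 in HoxA, 29.4 in HoxB and 26.5 in HoxD. These are single counts of 4 windows and have no test.

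**Figure D5:**
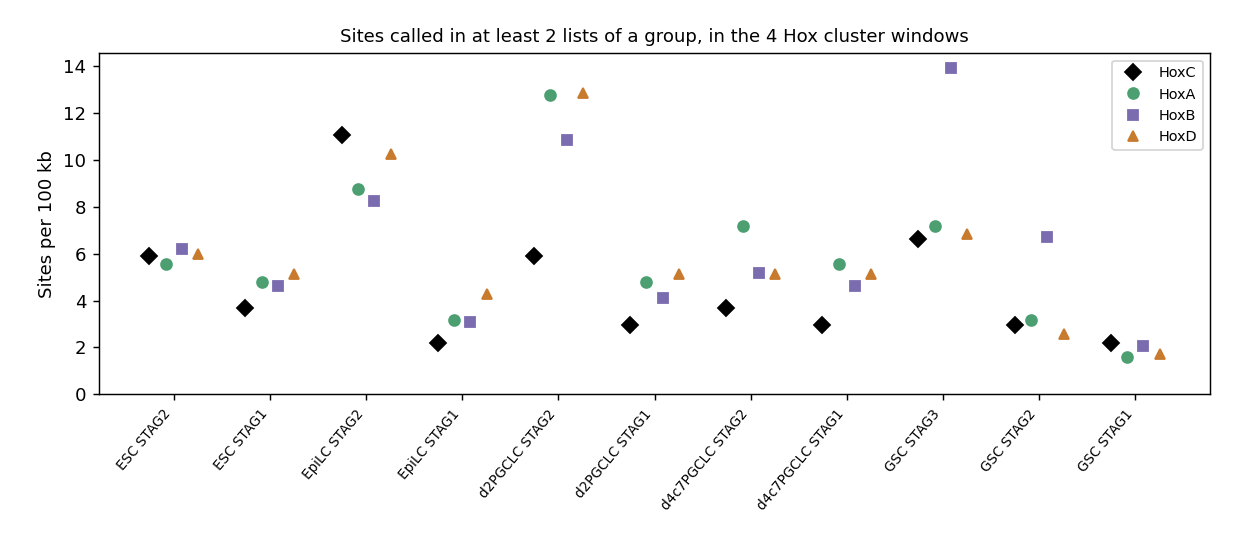
Sites per 100 kb (y axis) called in at least 2 lists of a group, for each group of cell type and protein, in the windows of the HoxC, HoxA, HoxB and HoxD clusters. HoxC lies at 5.89 in d2PGCLC STAG2, where the mean of the other clusters is 12.1, and at 2.21 in GSC STAG1, where that mean is 1.79.

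Among the other 30 Hox genes, 28 had a STAG2 site at a gene end in d2PGCLC, where HoxC had 5 of 9. In GSC 22 of the 30 had one for STAG3, 17 for STAG2 and 9 for STAG1. Of 12 genes for partners and regulators of Hox proteins, the Pbx, Meis and Pknox cofactors and the Cdx factors that activate Hox genes, all 12 had a STAG2 site in EpiLC and 3 a STAG1 site. In GSC 8 of the 12 had a STAG3 site, 1 a STAG2 site (Pbx2) and 0 a STAG1 site. Of the 9 HoxC genes 7, 4 and 3 had such sites in GSC, and of all protein-coding genes 55.2%, 25.1% and 7.61%, each in the order STAG3, STAG2 and STAG1.

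The genes most like each HoxC gene were sought by the presence of a peak at a gene end in each of the 30 lists, scored as the share of lists with a peak for both among lists with a peak for either. Hoxc10, with a peak in 30 lists, had the same pattern as 899 other genes, and Hoxc6 and Hoxc5, with 29, the same as 185. Hoxc13, with 20 lists, was most like Gm38457 and Klf3 (0.9 each). Hoxc12, with 7 lists, matched Bphl in full, and Hoxc4, with 6 lists, matched Trir and Ywhae in full. Hoxc11, with 9 lists, was most like Cep152 (0.818), and Hoxc8, with 12 lists, most like Arcn1 and Ska1 (0.786 each) and Pik3r6 (0.769). Hoxc9, with 3 lists, matched 5 genes in full. Patterns of few lists match readily, and these likenesses are descriptions over lists that share cell lines and lengths.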

How the data were processed

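Of 92 samples in the series, the 30 with a deposited peak list were used; the rest were not analysed here. Per the submitters' processing notes, the tools were MACS2, deepTools 3.5.0, Bowtie2 2.3.4.1, bedtools 2.29.2, cutadapt 1.9.1, SAMtools 1.7 and Trim Galore 0.4.1, and the builds mm10 and GRCm38.p3; calling options and control libraries are not stated. Each deposited peak carries a score of 10 times its −log10 q-value, a fold enrichment ratio over background, a −log10 p-value and a −log10 q-value, all by the authors; no list goes below a −log10 q of 2. The STAG lists were called per library and the CTCF lists on pooled replicates, per the peak names in the deposited lists.

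Peaks overlapping the window by 1 bp were taken (Python 3.11.15, pandas 2.3.3, NumPy 2.4.6, matplotlib 3.10.9) and merged over all lists. Exact permutation tests, two-sided, were run over lists; a test per interval with Benjamini-Hochberg adjustment, the summit distances and the Hoxc5 background were added after the data had been seen. Scripts were tested on simulated data. Gene ends stand in for promoters because the gene table gives no strand. The HoxC genes and all gene lists were chosen with earlier results of these data known. All 9 HoxC genes were named, as were sites called in at least 13 of the 26 STAG lists, in some CTCF genotypes only, or for 1 protein in all and another in no list of a cell type. Alternatives were a −log10 q of at least 5, flanks of 0 and 25 kb, equal list lengths by fold enrichment, values per 10000 peaks, other overlap and site definitions, each list left out in turn and a replicate block.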

Additional observations from a re-analysis of the deposited data

How the results depend on the processing

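Of 182 results recomputed under alternatives, 147 kept their direction and their side of the threshold, or their count within 1.5 times. The direction depended on list length. At equal list length the STAG2 minus STAG1 difference in HoxC peaks was -1.03 (exact permutation p = 0.00025), that per 10000 peaks -1.07 (p = 0.00025) and that in the share at shared CTCF sites 2.78 points (p = 0.52), all exact. GSC minus other cell types was 0.383 per 10000 peaks for STAG2 and 0.817 per 10000 peaks for STAG1. For STAG2 it was 1.07 at another equal length than that of the shortest list of all. With lists held to the shortest of all, the STAG2 mean was 2.33 peaks in GSC and 2.0 in each other cell type, a smaller excess. STAG3 minus STAG2 was -0.333 and STAG3 minus STAG1 was -1.0 at equal length. The cause was not tested beyond the site values given above.

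With a −log10 q of at least 5 the difference per 10000 peaks was -0.571 and that of STAG2 in GSC against the other cell types was -5.93, both then past the threshold, and that between HoxC and the other Hox clusters -1.09. With no flank these were -0.719, -6.20 and -1.34, the first 2 again past it. With CTCF sites of any genotype the share differed by -15.3 points and no longer passed the threshold (exact permutation p = 0.0772). The difference from the other clusters was -1.40 with sites called in any list, -0.777 with sites called in every list, -1.31 against HoxA and -1.77 against HoxB. HoxC genes with a site came to 7 for ESC STAG2, 5 for ESC STAG1, 7 for EpiLC STAG1 and 7 for d4c7PGCLC STAG2 when any list counted, and to 5 for EpiLC STAG2, 3 for d2PGCLC STAG2 and 2 for d4c7PGCLC STAG1 within 1000 bp. An alternative that left out 1 list at a time was not run for site densities and gene counts, whose groups of 2 lists would be left with 1.

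Leaving out each list in turn gave 3.23 to 5.23 for the STAG2 minus STAG1 count, -0.862 to -0.260 per 10000 peaks and -32.8 to -17.4 points for the share at CTCF sites. It gave -3.43 to -2.0 for STAG1 and -7.0 to -5.33 for STAG2 in GSC against the other cell types, 4.5 to 11 for STAG3 minus STAG2 and 5.5 to 12 for STAG3 minus STAG1. Same-numbered STAG2 and STAG1 lists showed no shared deviation, with correlations between -0.0326 and 0.0244 in 10 pairs. In ESC and EpiLC both pairs gave the same value, so the 10 are not independent. Such correlations do not show whether libraries were prepared in pairs. With the replicate block the count difference was 4.70 (exact p = 0.00781), the difference per 10000 peaks -0.451 (p = 0.252) and that in the share at CTCF sites -27.2 points (p = 0.00586), so the block changed no call. The share, -25.1 points as deposited (exact p = 0.000667), is fixed by the peak counts, since each list had 3 peaks on these sites. Peak lists show where enrichment passed a threshold, so an absent peak was not detectable at an unknown depth and is not shown to be absent.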
